A study of Homo sapiens with 2 samples.

Results

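Bone morphogenetic proteins (BMPs) and the secreted proteins that block them were examined here as 10 genes: the ligands BMP2, BMP3, BMP4, BMP5, BMP6 and BMP7 and the antagonists NOG, GREM1, CHRD and FST. They were chosen by name and not ranked by a measured value, though earlier results of these data were known. They are 10 of 20163 protein-coding genes in the annotation. Their ATAC-seq peaks were all peaks that overlapped the gene body or the 3 kb on either side of the transcription start site (TSS). This gave 48 of 114060 peaks in the DMSO library and 68 of 161184 peaks in the MAK683 library, which merged into 74 regions.

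The study treated G401, a long-established kidney cell line of malignant rhabdoid tumor origin, with MAK683 at 3 µM or with its solvent DMSO. MAK683 is a small-molecule inhibitor of PRC2, the Polycomb complex that methylates histone H3 at silenced genes, and acts through its EED subunit. ATAC-seq uses the Tn5 transposase to cut accessible DNA, and both cultures were collected after 3 days. The comparison asks where chromatin opened or closed with PRC2 inhibition. Both groups are the same line and differ by the labels in treatment alone. Each group was a single library, so the spread between cultures is unknown and no p-value is given. SMARCB1, the gene whose loss marks these tumors, had 0 peaks at its promoter and 0 in its gene region in both libraries.

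BMPs are secreted dimers of the TGF-beta family. They assemble type I and type II receptor kinases, which phosphorylate the receptor SMADs, and these enter the nucleus with SMAD4 to switch on targets such as the ID genes. Noggin, chordin and gremlin bind the ligands outside the cell and keep them from their receptors, and follistatin does so for activins and some BMPs. In the developing kidney, BMP7 maintains nephron progenitors, whereas gremlin restrains BMP4 so that the ureteric bud can branch. Many genes of this kind are textbook targets of PRC2 in stem cells.

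Sequences of 4 windows are shown to describe the DNA at or beside peaks discussed below. Each is given 5' to 3' on the strand of its gene from GRCh37, the genome build of the files (hg19). Capitals mark exact matches, on either strand, to 1 of 8 short motifs that were searched. These were the GC box GGGCGG, the CCAAT box CCAAT, the TATA box TATAAA, the AP-1 site TGACTCA, the TEAD site GGAATG, the GATA site AGATAA, the E-box CACGTG and the BMP-responsive GC element GGCGCC. None of these motifs contains another. BMP4 and BMP5 are shown as the 200 bases just upstream of the TSS, 1 with the tallest DMSO promoter and 1 with a promoter peak in MAK683 alone. FST and BMP6 are shown as the 201 bases centered on the MAK683 summit of the intronic peaks discussed below. The BMP4 window is chr14:54423544-54423743 (minus strand), the BMP5 window chr6:55740389-55740588 (minus strand), the FST window chr5:52778889-52779089 (plus strand) and the BMP6 window chr6:7818745-7818945 (plus strand).
BMP4 upstream window: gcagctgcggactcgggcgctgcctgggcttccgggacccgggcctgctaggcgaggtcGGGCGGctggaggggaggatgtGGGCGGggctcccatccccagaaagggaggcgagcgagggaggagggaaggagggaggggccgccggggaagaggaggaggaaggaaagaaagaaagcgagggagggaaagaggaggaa
BMP5 upstream window: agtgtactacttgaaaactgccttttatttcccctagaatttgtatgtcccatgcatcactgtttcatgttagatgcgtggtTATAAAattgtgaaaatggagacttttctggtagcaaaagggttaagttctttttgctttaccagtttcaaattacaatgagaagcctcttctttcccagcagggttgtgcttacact
FST intron window: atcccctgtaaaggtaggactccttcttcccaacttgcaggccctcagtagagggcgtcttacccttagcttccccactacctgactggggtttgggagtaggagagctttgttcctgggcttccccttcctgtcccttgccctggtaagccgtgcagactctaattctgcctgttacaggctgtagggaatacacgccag
BMP6 intron window: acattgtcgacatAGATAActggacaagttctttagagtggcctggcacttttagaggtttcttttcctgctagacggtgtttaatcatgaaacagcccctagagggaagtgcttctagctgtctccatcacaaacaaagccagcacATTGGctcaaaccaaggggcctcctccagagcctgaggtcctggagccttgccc
The BMP4 window held 14 CpG dinucleotides and 2 GC boxes at 69.5% GC, whereas the BMP5 window held 1 CpG and 1 TATA box at 37.5% GC. The FST window was intronic except for 13 coding bases and held no match. The BMP6 window lay wholly in an intron and held 1 CCAAT box and 1 GATA site. A match is a description of letters and not evidence of binding.

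Depth limited what could be seen. The DMSO library had 16598348 tags after filtering and the MAK683 library 18265284, 1.10 times as many. Peak height is how many extended tags cover the summit, and it was divided by the filtered tags of the library and multiplied by 1000000 (RPM, tag counts relative to depth), so that 1 tag was worth 0.0602 RPM in DMSO and 0.0547 in MAK683. The lowest listed peak had 6 tags, and a promoter with no listed peak can still hold tags below the caller's threshold. Where 1 library listed no peak, its height was set to 0.361 RPM, the larger of the heights that 6 tags give, which orders the genes but is not a bound. Intervals of heights are 95% exact binomial (Clopper-Pearson) intervals and those of ratios 95% Poisson intervals. Both cover counting error only. Over all 16247 protein-coding promoters with a peak in either library, the median log2 ratio of MAK683 over DMSO was -0.42. Ratios of the members are unscaled unless stated. Relative to this shift they were -0.16 at BMP4, -0.13 at BMP6, -0.06 at NOG and 0.17 at BMP7. At CHRD, BMP2, BMP3 and FST they were 0.49, 0.72, 0.92 and 1.32. Those of GREM1 (0.51) and BMP5 (1.40) rest on the set height.

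Of the 10 genes, 8 had a promoter peak in DMSO and all 10 in MAK683, against 72.7% and 78.7% of protein-coding genes. BMP5 and GREM1 had one in MAK683 alone, a pattern seen at 7.87% of protein-coding genes, and 0 members had one in DMSO alone, seen at 1.84%. The tallest promoter peak was taller in MAK683 at 6 of 10 (background 21.5% of genes with a promoter peak) and in DMSO at 4. Among the 8 with a peak in both libraries it was taller in MAK683 at 4 (background 13.5%). The median log2 ratio of the 10 was 0.08, and -0.09 over the 8, where the median of all promoters with both peaks was -0.46. At 1 member, FST, the interval of the ratio lay above 0 (background 0.931%), though not with the peak nearest the TSS or a 1 kb window (-0.10 to 1.82), and at 0 it lay below 0 (background 20.6%). None reached a log2 ratio of 1 or -1, which 3.37% and 5.75% of promoters with a peak did. The split of 6 to 4 became 7 to 3 relative to the median of all promoters, 5 to 5 when the peak nearest the TSS was used and 4 of 9 with a window of 1 kb. The background was not matched for height. The median DMSO promoter peak was 1.36 RPM at the members and 1.93 RPM over all protein-coding genes. Whether starting height has a part in these counts was not tested.

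**Figure D1:**
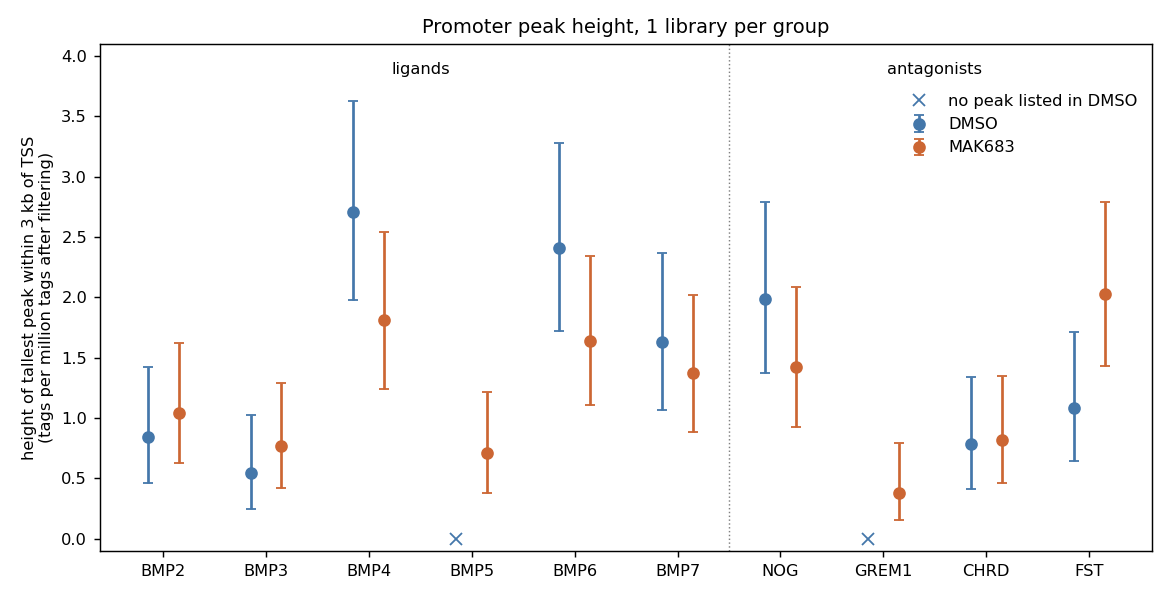
Height of the tallest peak within 3 kb of the TSS (y axis, RPM) for each BMP gene in the DMSO (blue) and MAK683 (orange) library. Bars are 95% exact binomial intervals of the single library and crosses at 0 mark no listed peak. BMP4 was the tallest in DMSO at 2.71 and FST the tallest in MAK683 at 2.03, and the intervals of the libraries overlapped at every gene with a peak in both.

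In the DMSO library the order of the promoters was BMP4, BMP6, NOG, BMP7, FST, BMP2, CHRD and BMP3, from 2.71 down to 0.542 RPM. In the MAK683 library it was FST, BMP4, BMP6, NOG, BMP7, BMP2, CHRD, BMP3, BMP5 and GREM1, from 2.03 down to 0.383 RPM. Neighbors in either order did not differ beyond their counting intervals. Apart from FST, the 8 genes with both peaks kept the same order in both libraries.

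BMP4, a ligand needed for mesoderm and for early kidney outgrowth, had the tallest promoter of the DMSO library. The TSS used lies at 54423543 on the minus strand of chromosome 14. Its main peak covered the TSS in both libraries, with 45 tags (2.71 RPM, interval 1.98 to 3.63) in DMSO and 33 tags (1.81 RPM, 1.24 to 2.54) in MAK683. The DMSO value was the higher, and the log2 ratio was -0.59 (-1.23 to 0.06), or -0.16 relative to all promoters. Peaks covered 4922 of the promoter bases in DMSO and 3404 in MAK683. An 11-tag peak at -2715 bp from the TSS was listed in DMSO alone, as was an 8-tag intronic peak 5585 bp downstream. A coding-exon peak 6452 bp downstream had 17 tags in DMSO and 15 in MAK683. BMP4 was the only member with fewer peaks in its surroundings, the 500 kb on each side of the gene, which held 91 peaks in DMSO and 58 in MAK683. A lncRNA on the opposite strand, ENSG00000287156, overlaps the promoter, and ATAC-seq signal carries no strand.

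BMP2, the ligand closest to BMP4 in sequence, was the reverse in level. Its single DMSO promoter peak, in the untranslated first exon, had 14 tags (0.843 RPM, 0.461 to 1.42), and the same region had 19 tags (1.04 RPM, 0.626 to 1.62) in MAK683. The log2 ratio of 0.30 (-0.69 to 1.30) did not exceed counting error. In MAK683 the accessible stretch was longer, at 2593 promoter bases against 935, and 2 more peaks were listed, 10 tags at -1632 bp and 8 tags at 2031 bp from the TSS, in an intron. BMP2 stood alone in its chromosome region, with 0 other peaks within 500 kb in either library and the nearest 641 kb away in MAK683.

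BMP3, an atypical BMP that opposes the bone-forming ligands, had a low promoter peak of 9 tags (0.542 RPM) in DMSO and 14 tags (0.766 RPM) in MAK683. The log2 ratio was 0.50 (-0.71 to 1.71). Around it MAK683 listed 4 further promoter peaks of 8 to 10 tags that had no DMSO counterpart, and covered promoter bases went from 640 to 2427. Further into the gene the direction was not the same: the intronic peak at 9522 bp had 12 tags in DMSO and 7 in MAK683, and that at 21933 bp had 15 and 14.

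BMP5, BMP6 and BMP7 form a subgroup of closely related ligands, and their loci differed most among the members. BMP5 had 0 peaks in DMSO across its 122 kb and 6 in MAK683. The tallest of these had its summit 30 bp downstream of the TSS, with 13 tags (0.712 RPM, 0.379 to 1.22), outside the upstream window shown above. A second, of 11 tags, lay in the first coding exon 877 bp downstream, and 4 others of 7 to 11 tags lay upstream or in introns. Against the height given to unlisted promoters the log2 ratio was 0.98, at percentile 96.6 of all promoters. This ratio has no counting interval, since its DMSO side is the set height and not a count. With only peaks of a -log10 q of 5 or more it was 0.24, since the lowest listed height is then larger. BMP5 also had the most AT-rich promoter of the members, with 37.3% GC in the 300 bases around the TSS (percentile 3.43) where the other 9 spanned 54.7% to 81.7%.

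BMP6, the ligand that controls hepcidin and iron in the liver, had an open promoter in both libraries. The peak over the TSS had 40 tags (2.41 RPM, 1.72 to 3.28) in DMSO and 30 tags (1.64 RPM, 1.11 to 2.34) in MAK683, a log2 ratio of -0.55 (-1.24 to 0.13), or -0.13 relative to all promoters. The flanking upstream region, with its summit at -2869 bp from the TSS, went the other way, with 21 tags in DMSO and 30 in MAK683, a log2 ratio of 0.38 (-0.43 to 1.18). Neither interval excluded 0. The body of the gene carried the larger difference. DMSO listed 6 peaks in the gene region and MAK683 20, a gain of 14 that 9.75% of genes of 100 to 200 kb matched or passed. All 16 MAK683-only regions lay in introns, between 3930 and 109375 bp from the TSS, and had 6 to 16 tags. The tallest was the window shown above, 92513 bp into the gene, with 16 tags (0.876 RPM). Peaks in the 500 kb on each side numbered 100 and 117, so the count outside the gene moved by 1.17 times. TXNDC5 and BLOC1S5-TXNDC5 overlap the last part of BMP6 on the other strand, away from the 16 regions.

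BMP7, the ligand of nephron progenitors, went the other way in its gene body. Its promoter peak changed little, with 27 tags (1.63 RPM, 1.07 to 2.37) in DMSO and 25 tags (1.37 RPM, 0.886 to 2.02) in MAK683. The log2 ratio was -0.25 (-1.03 to 0.54), and relative to the median of all promoters its sign turned, to 0.17. DMSO listed 20 peaks in the gene region and MAK683 11, a loss of 9 that 5.71% of genes of 50 to 150 kb matched or passed. The DMSO peak at 98137 bp from the TSS overlapped a 13-tag MAK683 peak just outside the gene region. That MAK683 peak was not counted in the 11, so the loss includes a shared region. The 11 DMSO-only regions had 7 to 10 tags, 10 in introns and 1 upstream, and 0 regions were MAK683-only. All of these 11 except the 10-tag region had a -log10 q below 5. All 7 shared regions were lower in MAK683, with log2 ratios from -0.97 to -0.14 whose intervals each included 0. Over the genome 23.8% of shared regions were higher in MAK683 and the median was -0.33, so 3 of the 7 lay above that median. The least changed, 21880 bp into the gene, had 19 tags in both libraries. In contrast, the surrounding 500 kb on each side held more peaks in MAK683, 129 against 103. The lncRNAs BMP7-AS1, within the gene, and ENSG00000226308, whose TSS lies 156 bp upstream, cannot be told apart from BMP7 in these peaks.

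**Figure D2:**
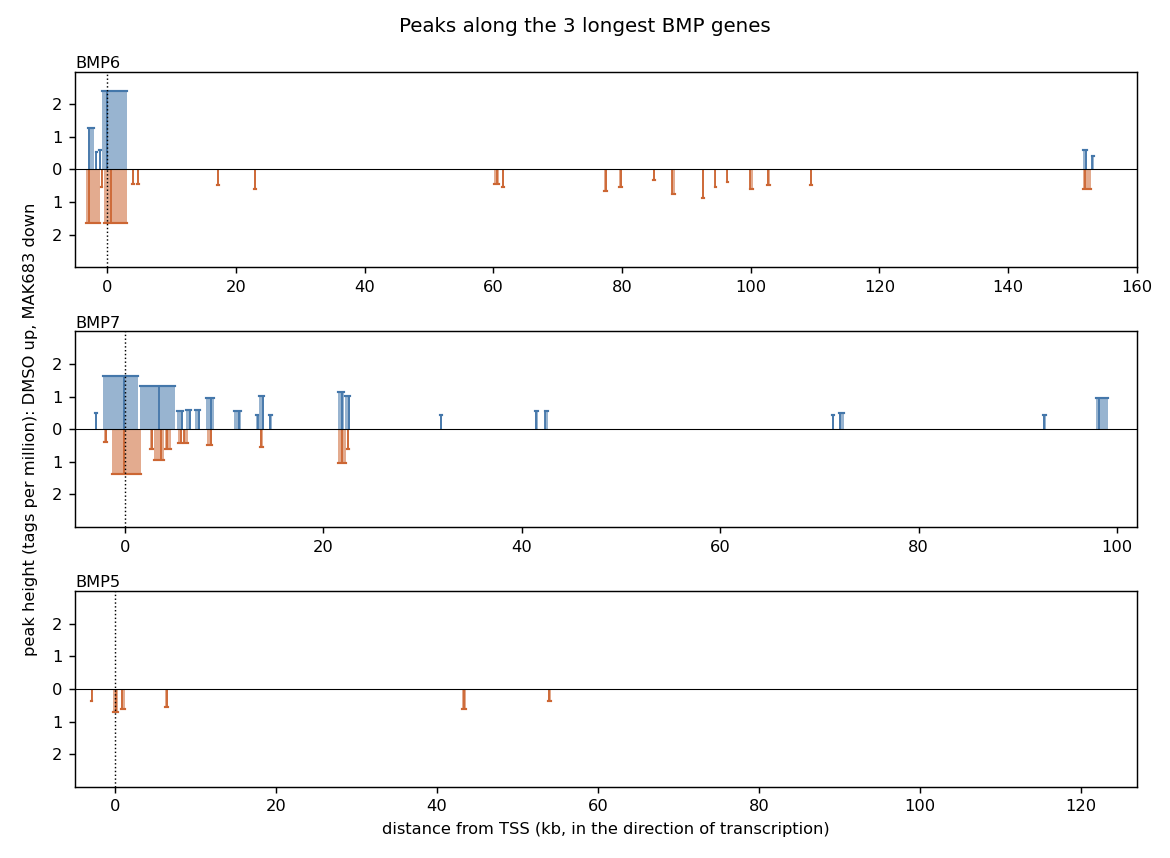
Peaks along BMP6, BMP7 and BMP5 by distance from the TSS (x axis, kb in the direction of transcription), with height in RPM drawn upward for DMSO and downward for MAK683; box width is peak length and the line in it the summit. BMP6 had 16 MAK683-only regions in its introns, BMP7 had 11 regions in DMSO alone, and the 6 peaks of BMP5 were all in MAK683.

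FST encodes follistatin, and it showed the clearest difference of the 10. In DMSO its promoter was a row of 6 small peaks, the tallest 18 tags (1.08 RPM, 0.643 to 1.71) at -2079 bp from the TSS. In MAK683 these joined into 3 broad peaks, the tallest 37 tags (2.03 RPM, 1.43 to 2.79) at 2530 bp, in the intron shown above. The log2 ratio of the tallest peaks was 0.90 (0.09 to 1.71), a fold of 1.87 and percentile 95.7 of all promoters. These summits differ in place. The merged regions were also compared one by one, again by the tallest peak of each library, whose summits can lie apart. The intronic region had 14 tags (0.843 RPM) in DMSO and 37 (2.03 RPM) in MAK683, a 2.40-fold difference with a log2 ratio of 1.26 (0.38 to 2.15). Its DMSO summit was at 1442 bp, and the DMSO peak nearest the MAK683 summit, at 2583 bp, had 12 tags. The region over the TSS had 13 tags, at 191 bp, and 26 tags, at -800 bp, with a log2 ratio of 0.86 (-0.10 to 1.82), and the upstream region 18 and 20 tags, with a ratio of 0.01 (-0.90 to 0.93). These 3 intervals overlap, and the difference between the regions was not tested. Bases under promoter peaks went from 2876 to 5192. Peaks in the 500 kb on each side of FST went from 7 to 36 (5.14 times), and whether this regional gain has a part in the FST values was not tested.

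NOG encodes noggin in a single exon. Its promoter was open in both libraries, with 33 tags (1.99 RPM, 1.37 to 2.79) in DMSO and 26 tags (1.42 RPM, 0.930 to 2.09) in MAK683, a log2 ratio of -0.48 (-1.22 to 0.26), or -0.06 relative to all promoters. A second peak just past the 3' end, 2758 bp from the TSS, was listed in MAK683 alone with 17 tags (0.931 RPM), the tallest of all 35 MAK683-only regions of the members. The promoter itself thus moved with the bulk of promoters while a new peak was listed beside it.

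GREM1 encodes gremlin, and like BMP5 it had 0 peaks in DMSO. The 4 MAK683 peaks were small, at 7 or 8 tags, with the promoter peak of 7 tags (0.383 RPM, 0.154 to 0.790) at -1367 bp from the TSS. Since 6 tags was the lowest height listed, this difference was not detectable at this depth, and its log2 ratio against the height of unlisted promoters was 0.08. None of the 4 survived a cutoff of 5 on the -log10 q scale. GREM1-AS1 overlaps the promoter on the other strand.

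CHRD encodes chordin. Its tallest peak had 13 tags (0.783 RPM, 0.417 to 1.34) in DMSO and 15 tags (0.821 RPM, 0.460 to 1.35) in MAK683, a log2 ratio of 0.07 (-1.0 to 1.14). The sign depended on the peak chosen. The region at -2694 bp from the TSS had 9 tags in DMSO and 15 in MAK683, that at -716 bp 13 and 14, and the intronic region at 532 bp 13 in each. All of these lie inside THPO, which runs on the other strand across the CHRD promoter and starts close to the lncRNA ENSG00000289500. Without peaks near the start of THPO the CHRD ratio was -0.14. The peaks whose summits were nearest the CHRD start had 13 tags in DMSO and 7 in MAK683, a log2 ratio of -1.03 (-2.36 to 0.29). No direction could be given for CHRD.

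**Figure D3:**
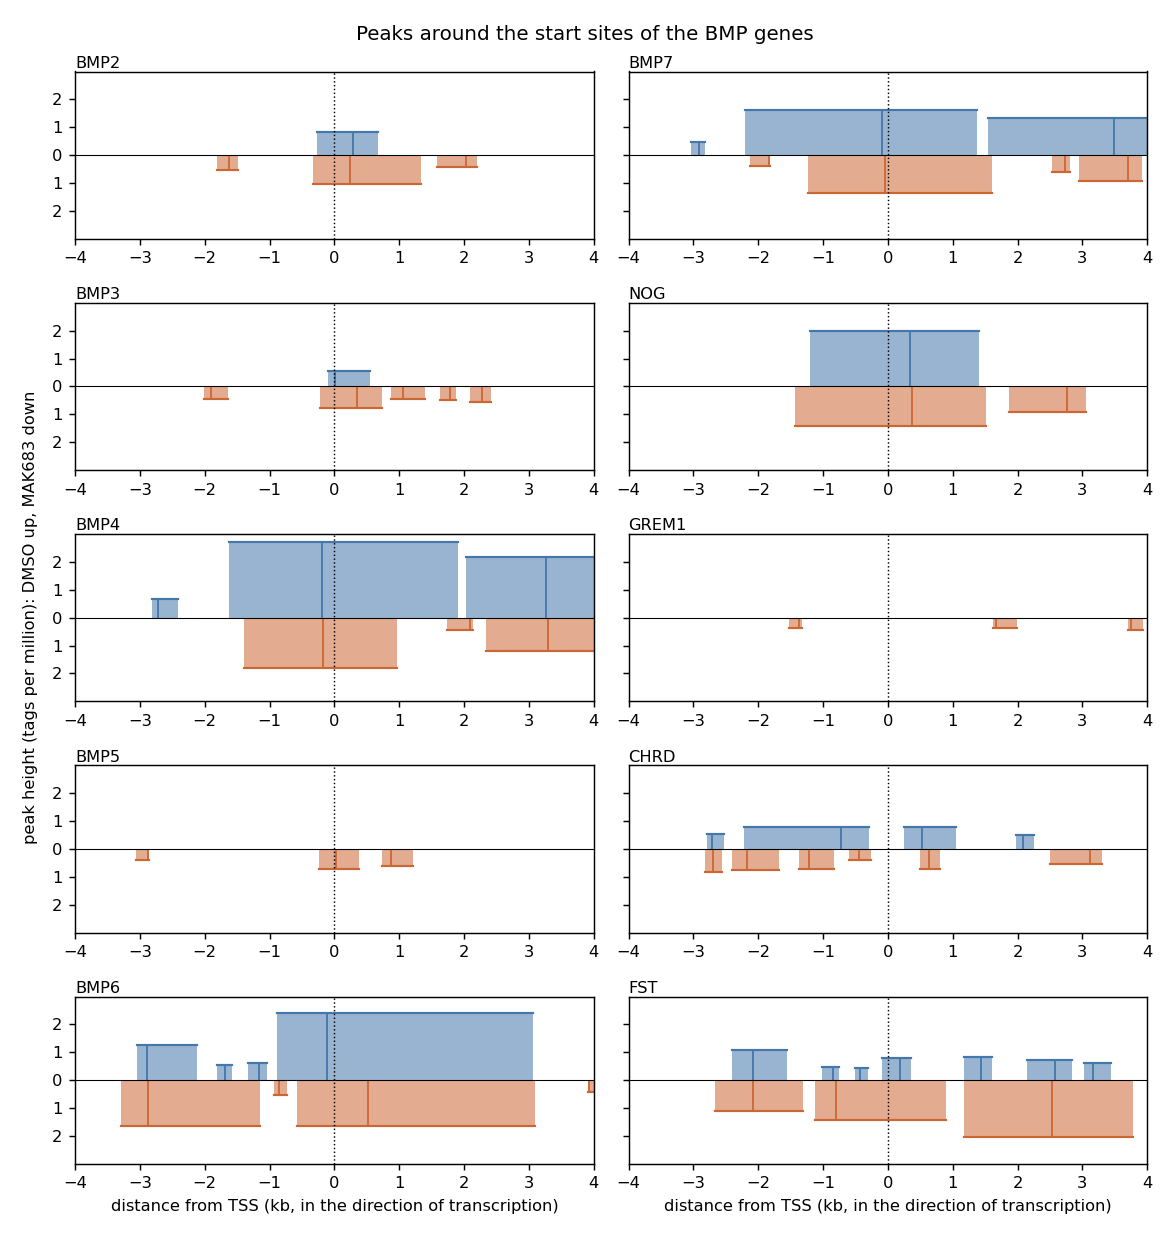
Peaks within 4 kb of the start of each BMP gene (x axis, kb from the TSS in the direction of transcription), with height in RPM upward for DMSO and downward for MAK683; box width is peak length and the line in it the summit. BMP5 and GREM1 are empty in DMSO, the small DMSO peaks of FST are joined in MAK683, and BMP4, BMP6, BMP7 and NOG have broad peaks over the TSS in both.

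The 2 libraries also differed in breadth. MAK683 peaks covered more promoter bases at 7 of the 10 genes, against 32.0% of all genes with a promoter peak. Among the 8 with peaks in both libraries the covered length at least doubled at BMP2 (2.77 times) and BMP3 (3.79 times), which 6.70% of such genes did. BMP4, BMP7 and CHRD lost covered bases, with ratios of 0.692, 0.663 and 0.814. Covered length depends on how the caller joins neighboring peaks, as at FST.

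The ratios of ligands and antagonists overlapped. The median promoter log2 ratio was 0.03 for the 6 ligands, 3 of them taller in MAK683, and 0.08 for the 4 antagonists, 3 of them taller in MAK683 (background 21.5%). Over genes with a peak in both libraries the medians were -0.25 for 5 ligands and 0.07 for 3 antagonists. In the distribution of ratios over all promoters, BMP4 and BMP6 lay at percentiles 32.8 and 37.2, NOG at 43.8 and BMP7 at 65.9. The other 6 lay between 80.3 and 96.6, BMP5 and GREM1 among them by the height given to an unlisted peak. The 4 genes with the tallest DMSO promoters were the 4 lowest of these. Low DMSO peaks have wide intervals, so this order is a description across 10 genes that share the same 2 libraries. The DMSO height is also the denominator of the ratio, so a tall DMSO value lowers the ratio by construction. No conclusion is drawn from the order.

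**Figure D4:**
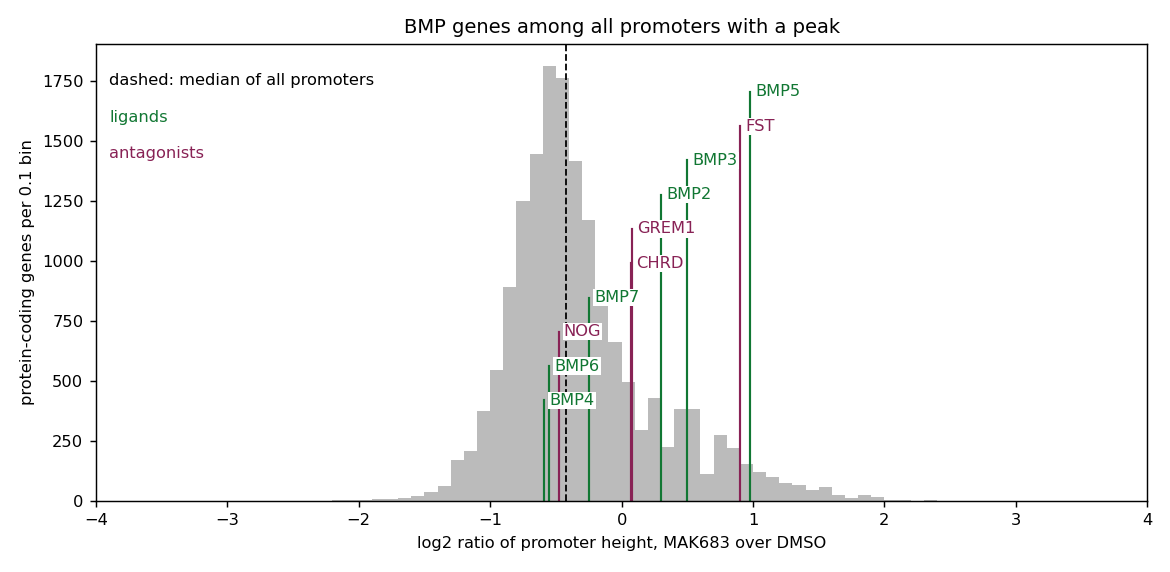
Histogram of the log2 ratio of promoter height, MAK683 over DMSO (x axis), over 16247 protein-coding genes with a promoter peak (y axis, genes per bin of 0.1), with the BMP genes as labelled lines whose heights have no meaning. BMP4, BMP6 and NOG lie left of the median of -0.42 and the other 7 to its right; BMP5 and GREM1 are placed by the height given to an unlisted peak.

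Over whole gene regions, MAK683 listed more peaks at 7 of the 10 genes, against 36.8% of genes with a peak, and fewer at BMP4, BMP7 and FST. In sum the members went from 48 to 68 peaks (1.42 times), the ligands from 35 to 52 and the antagonists from 13 to 16, where all protein-coding genes went from 91897 to 106298 (1.16 times). All peaks of the libraries went from 114060 to 161184, so the gain at the members was near that of the whole libraries. By chromosome the ratio of peak counts ran from 0.832 (chromosome 22) to 2.12 (chromosome 18). The difference at the members was in low peaks. When a -log10 q of 5 or more was required, the members had 28 peaks in DMSO and 32 in MAK683, and when 10 or more was required they had 15 and 14. Over the genome these cutoffs left 71579 and 69045 peaks, and 30812 and 26078. Of the 48 DMSO peaks of the members, 33 overlapped a MAK683 peak, and of the 68 MAK683 peaks 33 overlapped a DMSO peak, where 56.2% and 43.2% of all peaks did. The 35 MAK683-only regions had a median of 9 tags and the 15 DMSO-only regions 8, against a lowest listed height of 6. Of the 24 shared regions 7 were higher in MAK683 (background 23.8% of shared regions), 16 lower and 1, a BMP6 region with 10 and 11 tags, equal once the log2 ratio was rounded to 2 decimals. The intronic FST region was the 1 whose interval lay above 0 (background 0.624%), and at 0 the interval lay below 0 (background 8.27%). Their median log2 ratio was -0.24, where that of all shared regions was -0.33.

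The surroundings of the members moved unequally. Peaks in the 500 kb on each side went from 6 to 28 at BMP3 (4.67 times), from 6 to 36 at BMP5 (6.0 times), from 21 to 76 at NOG (3.62 times), from 12 to 59 at GREM1 (4.92 times) and from 7 to 36 at FST. At BMP6, BMP7 and CHRD the ratios were 1.17, 1.25 and 1.04. The genes with 0 DMSO peaks, BMP5 and GREM1, thus lay in regions where MAK683 listed several times more peaks outside the gene as well. The caller used 1 background level for the whole genome, so a regional change in coverage is not corrected in these lists, and its part in the member values was not tested.

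The sequence around the starts varied widely. Over the 300 bases from 250 upstream to 50 downstream of the TSS, the median GC content of the members was 69.2% and that of 20140 protein-coding genes 63.7%. BMP2 and CHRD were the most GC-rich, at 81.7% and 81.3%. The ratio of observed to expected CpG was 0.10 at BMP5 and between 0.71 and 1.11 at the other 9. A GC box was found in 7 of the 10 promoters and in 61.0% of all, a CCAAT box in 4 and 36.0%, a TATA box in 1 and 9.79%, and the BMP-responsive GC element in 3 and 26.0%. A TEAD or a GATA site was found in 1 promoter each (11.3% and 7.24% of all), and an AP-1 site or an E-box in 0 (3.57% and 8.74%). In the 201 bases around summits, a GATA site was present at 4 of 48 DMSO peaks and 10 of 68 MAK683 peaks of the members, where 6.64% and 7.06% of all peaks had one. A TEAD site was present at 9 and 11, or 18.8% and 16.2%, where 11.6% and 12.6% of all peaks had one. An E-box was present at 2 and 6, where 3.68% and 3.30% of all peaks had one, and an AP-1 site at 1 and 2, where 3.52% and 3.62% had one. Peaks of the same gene are not independent, and motif counts this small are given as a description.

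The other genes of the pathway were listed by role as 51 genes, and 44 of them had a promoter peak. The peak was taller in MAK683 at 14 (background 21.5%) and in DMSO at 30, with a median log2 ratio of -0.28 where that of all promoters was -0.42. The receptors, which include BMPR1A, BMPR2 and ACVR1, had a median of -0.17. Of their 9 intervals, 0 lay above 0 and 0 below (background 0.931% and 20.6%). Their largest ratio was at BMPR1B, a type I receptor, with 17 tags in DMSO and 30 in MAK683 (0.68, -0.18 to 1.54). Of the other ligands, GDF6 had 22 and 33 tags (0.45, -0.33 to 1.23), and BMP10, BMP15 and GDF2 had no promoter peak in either library.

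Of the 6 SMADs, 1 was taller in MAK683 and 5 were lower, with a median of -0.46, near the 21.5% taller and the median of -0.42 of all promoters. Intervals of 2 lay below 0 (background 20.6%). SMAD4, the shared partner of the receptor SMADs, had 40 tags in DMSO and 26 in MAK683 (-0.76, -1.47 to -0.05). SMAD6, an inhibitory SMAD that BMP signaling itself induces, had 44 and 27 (-0.84, -1.53 to -0.15). SMAD1, a receptor SMAD, was the exception with 20 and 33 tags (0.58, -0.22 to 1.39).

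The only interval of this list above 0 was that of BMPER, among the other antagonists and modulators (background 0.931%). BMPER, a secreted protein that binds BMPs, had 11 tags in DMSO and 27 in MAK683, a log2 ratio of 1.16 (0.15 to 2.17). CHRDL1 and CHRDL2, relatives of chordin, and SOSTDC1, a sclerostin relative that binds BMPs, had no promoter peak in DMSO and 14, 15 and 14 tags in MAK683. A promoter peak in MAK683 alone was seen at 7.87% of protein-coding genes. DAND5 had 10 tags in DMSO and no listed peak in MAK683, a pattern seen at 1.84%. BMP1, a protease that cleaves chordin despite its name, had 37 and 23 tags (-0.82, -1.57 to -0.07). Of the 12 genes of this kind with a peak, 6 were taller in MAK683 (background 21.5%), and the median was 0.03.

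Of 12 target genes, 10 were lower in MAK683, as were 12737 of all 16247 promoters with a peak. The median of the targets was -0.44, close to that of all promoters. The largest difference was at GATA2, a hematopoietic transcription factor, with 46 tags (2.77 RPM) in DMSO and 12 (0.657 RPM) in MAK683, a log2 ratio of -2.08 (-2.99 to -1.16). BAMBI, a decoy receptor induced by BMPs, had 33 and 18 tags (-1.01, -1.84 to -0.18). ID2 had 60 and 38 (-0.80, -1.38 to -0.21), and its relatives ID1, ID3 and ID4 had ratios of -0.55, -0.22 and -0.55. The list held 6 intervals below 0 among 40 genes with both peaks (background 20.6%). Only that of GATA2 stayed below 0 once the median of all promoters was taken off. The same step put the intervals of GDF6, BMPR1B, SMAD1 and DLX5 above 0, beside that of BMPER, since their lower ends lay above -0.42. DLX5, a homeobox gene of bone, was the highest with 17 and 30 tags (0.68, -0.18 to 1.54). Accessibility of a target promoter does not measure its transcription, and RNA was not analysed here.

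**Figure D5:**
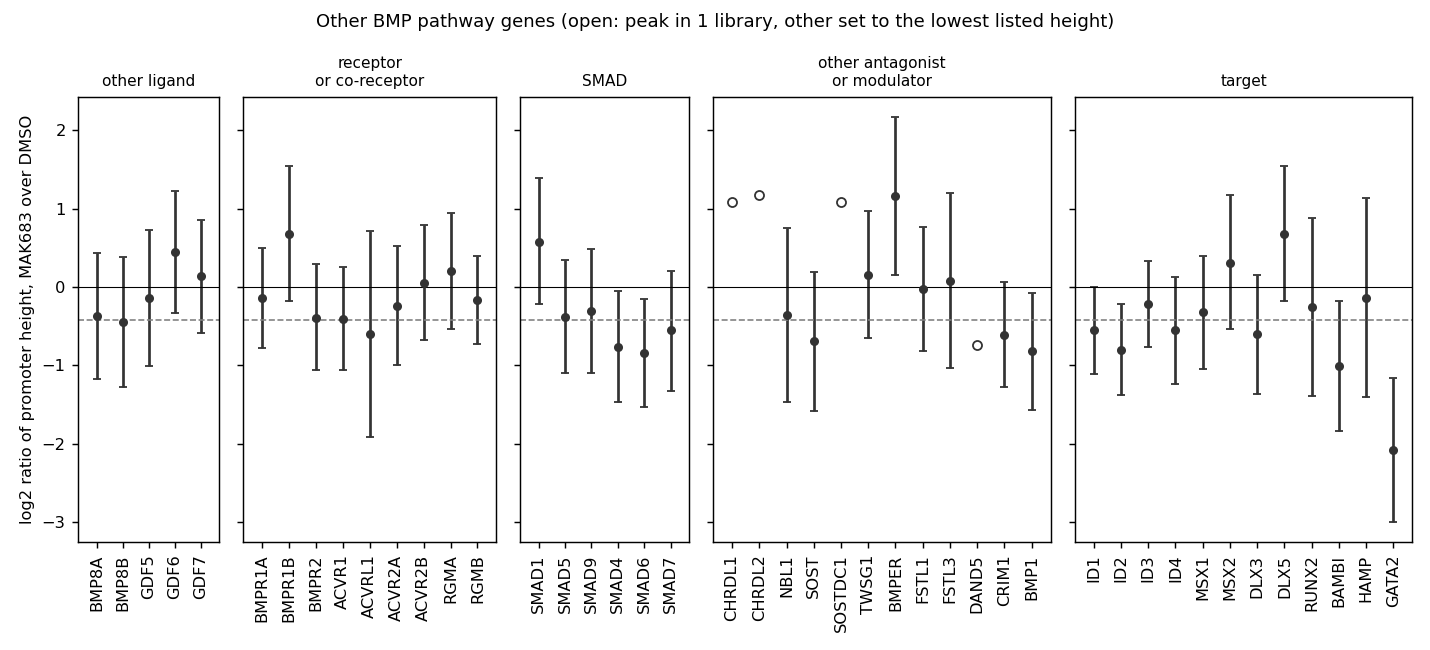
Log2 ratio of promoter height, MAK683 over DMSO (y axis), for the 44 other pathway genes with a promoter peak, by role; bars are 95% Poisson intervals, open points have a peak in 1 library and the dashed line is the median of all promoters, -0.42. BMPER is the only gene with a bar wholly above 0, and GATA2 is the lowest at -2.08.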

How the data were processed

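The 2 ATAC-seq libraries of G401 cells were made from paired 150-bp reads, trimmed with Trim-galore and aligned by the authors with Bowtie2 to the hg19 genome. Per the file headers, each library had its own peak calls, from MACS 2.1.1.20160309 in single-end mode, without a control or local background, with tags shifted by -100 bp and extended to 200 bp, 1 tag kept per position and a q cutoff of 0.05, whereas the submitters' processing notes name MACS2 2.1.0 and 2.2.7.1. The deposited pileup is a signal, the whole tags over the summit. The deposited fold enrichment is a ratio to the genome-wide background. The deposited -log10 p-values and q-values score each peak and served only as filters here.

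Heights were divided by the tags after filtering and multiplied by 1000000. Genes and TSSs came from GENCODE 44 on GRCh37. An overlap of 1 bp or more made peaks shared. The log2 ratio of tag counts had a Poisson interval, and the code was tested on simulated data. Values were computed in Python 3.11.15 with numpy 2.4.6, pandas 2.3.3 and scipy 1.17.1. Figures were drawn with matplotlib 3.10.9. All 10 members were named, and of the other pathway genes those whose interval excluded 0 or with a peak in 1 library, up to 10 per direction by size. Other pathway genes in the text were chosen after their values were seen. The members and lists were chosen with earlier results of these data known. Alternatives covered the window, the TSS set, the q cutoff and the scaling. Sequences of the members' proteins and other assays of the study were not used here.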

Additional observations from a re-analysis of the deposited data

How the results depend on the processing

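The ratios of the 8 genes with a promoter peak in both libraries were recomputed under 78 combinations of gene and alternative, and 77 stayed within the counting interval of the reported value. Several alternatives could hardly leave it. Using all TSSs, or requiring the summit inside the window, changed no ratio, and rescaling moved each by less than its wide interval. The count of 77 is thus no measure of stability. The exception among the 78 was CHRD with the peak nearest the TSS. With that peak, and with a window of 1 kb, the unscaled interval of FST was -0.10 to 1.82 and no longer lay above 0. FST stayed between 0.86 and 1.32, BMP2 and BMP3 stayed above 0 and BMP4, BMP6 and NOG below 0 under every alternative that gave a value, whereas BMP7 ranged from -0.25 to 0.17 and CHRD from -1.03 to 0.49. The ratios of BMP5 (0.24 to 1.40) and GREM1 (0.08 to 0.51) are set against the lowest listed height, which nearly fixes their sign, and GREM1 gave no value with a 1 kb window or either q cutoff. The median ratio of the 10 genes ranged from -0.37, at a -log10 q cutoff of 10, to 0.50, scaled to the median promoter. At the q cutoff of 10, promoter peaks remained at 5 genes in DMSO and 6 in MAK683, 2 were taller in MAK683, and the gene regions held 15 and 14 peaks. At a cutoff of 5 they held 28 and 32. Fewer peaks pass these cutoffs by construction. Using the peak nearest the TSS, and leaving out peaks near the TSS of another gene, were chosen after seeing the data.

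No paired analysis was possible because each group had 1 library. Depth limits the low peaks most: a peak of 6 to 10 tags listed in 1 library alone is within counting error of the lowest listed height. Taller peaks of the members in 1 library alone, of up to 17 tags, were given no interval against that height.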
